A study of Mus musculus with 2 samples.

Results

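The serpins are a protein family named for inhibition of serine proteases, and liver is the main source of those that circulate in plasma. The members were taken as every row of the deposited tables whose gene symbol begins with Serpin, leaving out symbols that carry the pseudogene suffix. This gave 35 genes of the 13326 gene symbols listed. They were 5 Serpina1 paralogs, 11 Serpina3 paralogs, 6 other genes of clade A, 6 of clade B and 7 of clades C to I. Serpina3h, which is a member by its symbol, is annotated as a transcribed pseudogene. Another 29 Serpin symbols of the RefSeq gene table, among them Serpina5, were not analysed here.

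A serpin exposes a flexible loop as bait. When a protease cuts the loop, the inhibitor snaps into a more stable shape, drags the enzyme along and disables it for good, so that each molecule is used once. Secreted liver serpins restrain neutrophil elastase, the clotting cascade, plasmin and complement, whereas the clade B serpins stay inside cells and guard them against proteases of leukocyte granules. Several members inhibit no protease: they carry hormones, act as extracellular signals or help collagen to fold.

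The livers came from male C57BL/6J mice, 12 weeks old and fasted overnight, which were either wild type or Adipoq-/-. Adipoq encodes adiponectin, a hormone secreted by fat cells, and the labels do not say how this allele was made. RNA of 9 to 10 animals was pooled for each genotype, so that each genotype is 1 library and differences between animals cannot be seen. The comparison asks how loss of adiponectin bears on liver gene expression. With 1 library per genotype there is no replicate check, no test across samples and no p-value. The deletion was not checked against Adipoq, which was not analysed here. All 8 hepatocyte markers on the marker list were abundant, from 438 FPKM for Cps1 to 17522 for albumin (Alb) in wild type. In whole tissue, fewer cells of a type and less RNA per cell cannot be told apart.

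Levels are given in FPKM, a fragment count corrected for how long a transcript is and how much was mapped, and can therefore be compared between genes. In pairs of values the wild-type library comes first. Ratios are log2((knockout FPKM + 1) / (wild-type FPKM + 1)) for genes that reached 1 FPKM in either library, minus the median of the same quantity over all 11985 such genes, which was -0.15. They are called relative log2 ratios below, and the added 1 FPKM makes those of low genes smaller. A ratio of 0.58 on this scale is 1.5-fold. Abundant genes sat higher on it: the median relative log2 ratio was 0.26 over the 1018 genes whose mean reached 100 FPKM and -0.05 over genes with a mean under 10 FPKM. A serpin near 0.26 therefore lay in the middle of the abundant transcripts.

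Of the 35 members, 32 passed the minimum of 1 FPKM, 14 of them lay within 0.2 of the all-gene median on the relative log2 scale, and 2, Serpinb8 and Serpina3j, passed it only through the knockout library. Relative to all genes, 5 of 32 members were at least 1.5-fold higher in Adipoq-/- liver, namely Serpina12, Serpina1e, Serpinb6b, Serpinb9 and Serpina10, against a background of 6.73% of all genes. None of the 32 was 1.5-fold lower, where the background was 2.61%. The split depended on scaling. With FPKM as deposited, 2 members were 1.5-fold higher (Serpina12 and Serpina1e) and 2 lower (Serpina7 and Serpinb1a), against 3.23% and 6.17% of all genes. After rescaling to equal upper quartiles, 3 were higher and 2 lower, against 4.42% and 4.38%. After rescaling to equal sums, 0 were higher and 2 lower, against 1.52% and 12.5%. Over all genes the split was 806 higher and 313 lower in the relative measure, and 387 and 739 as deposited.

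The members' median relative log2 ratio was 0.20, and 24 of 32 members exceeded the all-gene median, which 50% of all genes exceed by construction. Serpinb8 and Serpina3j passed the minimum only through the knockout library and so were bound to be among the 24. The members' median was -0.05 when centred on genes of at least 100 FPKM and -0.08 after rescaling to equal sums. The family as a whole therefore has no direction that holds over the scalings. Among the 13 serpins whose mean reached 100 FPKM the median was 0.17, below the 0.26 of all genes that abundant. After correction for length these medians were 0.084 and 0.090. Summed over all 35 members, serpins held 2.603% of FPKM in wild-type and 2.597% in Adipoq-/- liver. In wild type, 6 transcripts, those of the Serpina1 paralogs and Serpina3k, made up 85.8% of that sum.

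**Figure D1:**
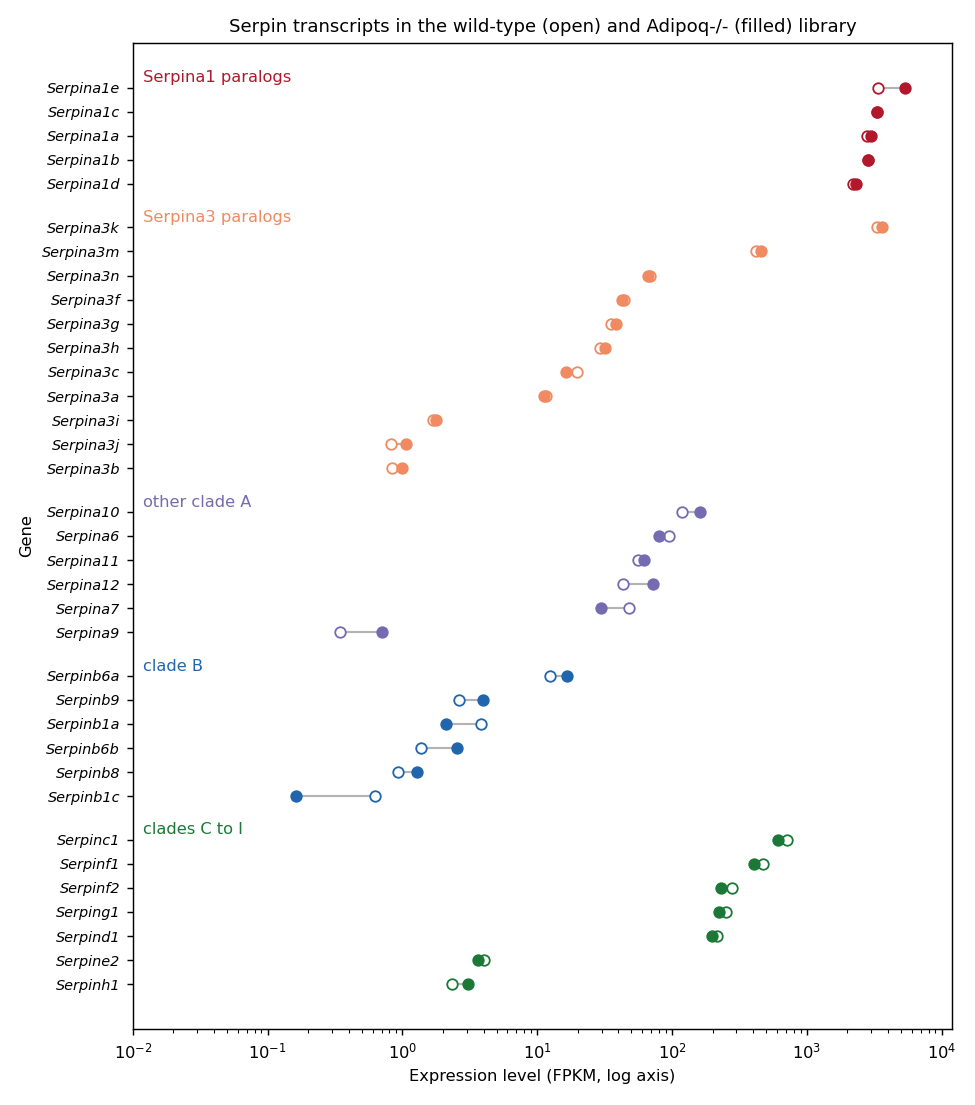
Expression level in FPKM (log axis) of the 35 serpin genes, open circles for the wild-type and filled circles for the Adipoq-/- library, 1 pooled library each, grouped by subfamily. Levels span from 0.162 FPKM (Serpinb1c, knockout) to 5308 FPKM (Serpina1e, knockout), and the pairs of circles of the most abundant genes nearly touch, Serpina1e apart.

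Alpha-1-antitrypsin is the plasma inhibitor of neutrophil elastase. People have 1 gene for it, and the mouse has a row of near copies. All 5 copies listed here were among the 55 most abundant transcripts of both libraries. Serpina1e reached 3357 FPKM in wild-type and 5308 in Adipoq-/- liver, 1.58-fold higher, with a relative log2 ratio of 0.81. Its rank by abundance went from 38 to 32. The other 4 copies differed little. Serpina1a stood at 2779 and 3001 FPKM, Serpina1b at 2864 and 2860.3, Serpina1c at 3288 and 3335, and Serpina1d at 2205 and 2298. Their relative log2 ratios ran from 0.15 to 0.26, close to or under the median of abundant genes. After correction for length they ran from 0.04 (Serpina1c) to 0.20 (Serpina1a), where that median was 0.09. In total these 4 summed to 11136 and 11494.5 FPKM, a ratio of 1.03. Serpina1e thus made up 23.2% of alpha-1-antitrypsin FPKM in wild-type and 31.6% in Adipoq-/- liver, while the share of Serpina1b was 19.8% and 17.0%.

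**Figure D2:**
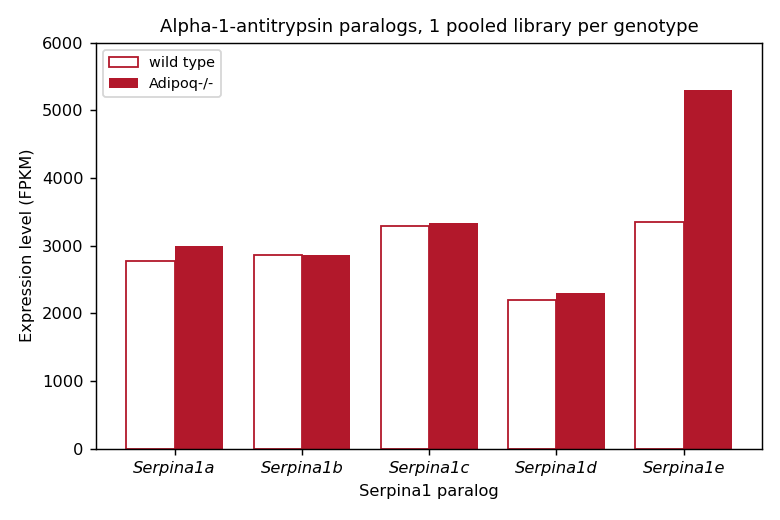
Expression level in FPKM (axis from 0) of the 5 alpha-1-antitrypsin paralogs, open bars for the wild-type and filled bars for the Adipoq-/- library, 1 pooled library each. Serpina1e differs most, at 3357 and 5308 FPKM, and the other pairs of bars are within 1.08-fold of each other.

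Over all genes, 2.14% had a higher relative ratio than Serpina1e. Of the 109 genes whose mean reached 1000 FPKM, 29 were at least 1.5-fold higher relative to the all-gene median, as were 187 of 1018 that reached 100 FPKM. Among the 109, with a median of 0.31, Serpina1e ranked 19 from the top, and it ranked 5 of 94 once genes with a Mup symbol were set aside. Serpina1a ranked 63 of 109 and Serpina1b 76. Centred on abundant genes, Serpina1e was at 0.56, just under 1.5-fold, and it was at 0.75 after correction for transcript length.

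Near copies make reads hard to assign. In the GENCODE transcripts, 50.5% of the 36-base windows of the longest Serpina1e transcript occur in no other gene, against 53.0% for Serpina1b, 39.2% for Serpina1d, 26.5% for Serpina1a and 16.2% for Serpina1c. With 75-base windows the shares were 79.7% for Serpina1e and 26.4% for Serpina1c. Neither the read length nor the treatment of reads with several matches was known here, so each copy's value is uncertain. The sum over the 5 copies, which depends less on how reads were split among them, was 14493 FPKM in wild-type and 16802.5 in Adipoq-/- liver, a relative log2 ratio of 0.36.

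The promoters of the 5 copies are shown because the copies differ in ratio although a stretch of 106 bases before their starts is nearly the same. Each line is 106 bases of the RefSeq promoter table (build GRCm38.p6, not the mm9 build of the deposited values), written 5′ to 3′ on the minus strand and aligned without gaps. Capitals mark GTTAATATTCAC, a run found in all 5 windows, on which they were aligned.
Serpina1a: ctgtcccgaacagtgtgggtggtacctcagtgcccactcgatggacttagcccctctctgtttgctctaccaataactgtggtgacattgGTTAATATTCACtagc
Serpina1b: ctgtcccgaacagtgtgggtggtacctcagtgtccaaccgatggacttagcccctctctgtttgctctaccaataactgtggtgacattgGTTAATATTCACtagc
Serpina1c: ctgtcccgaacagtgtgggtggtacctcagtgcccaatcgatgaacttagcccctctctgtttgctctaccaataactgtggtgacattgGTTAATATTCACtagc
Serpina1d: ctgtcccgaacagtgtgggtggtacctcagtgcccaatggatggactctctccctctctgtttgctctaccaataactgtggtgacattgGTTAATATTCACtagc
Serpina1e: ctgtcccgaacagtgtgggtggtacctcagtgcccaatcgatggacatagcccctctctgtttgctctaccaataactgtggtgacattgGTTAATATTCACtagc

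These windows lie at chr12:103863625-103863730 for Serpina1a, chr12:103738200-103738305 for Serpina1b, chr12:103904962-103905067 for Serpina1c, chr12:103773634-103773739 for Serpina1d and chr12:103956960-103957065 for Serpina1e. Of the 106 positions, 96 are identical in all 5. Serpina1e differs from each of Serpina1a and Serpina1c at 2 positions, from Serpina1b at 3 and from Serpina1d at 6. Counted from 1 at the 5′ end and written from the Serpina1e base, 1 position sets Serpina1e apart from all the others, A47T. The annotated start of Serpina1e lies farther from the capitals than those of the others. The run begins 78 bases before it, and 16 to 27 bases before the starts of the other copies. The Serpina1e window thus ends 63 bases before its start, and those of the others 1 to 12 bases before theirs. The bases between the windows and the starts were not compared.

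GTTAAT, the 6 letters that open this run, searched on both strands from 250 bases before to 50 bases after each start, was present in 8 of the 27 members that have a promoter entry and in 8.24% of 27025 genes. Besides the 5 copies above, these were Serpina7, Serpina3c and Serpinb8. TATAAA was in 6 of 27 members and 15.7% of genes, TTCNNNGAA, the core bound by STAT factors, in 5 and 9.55%, and CAAAGTCCA, a sequence bound by HNF4, in 0 and 0.555%. A match is only a match of letters. The 5 Serpina1 windows are near copies, so theirs are not separate instances.

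Serpina3 corresponds to human alpha-1-antichymotrypsin, and its mouse copies have different baits and so different targets. None of the 10 copies past the minimum was 1.5-fold apart, where 6.73% of all genes were higher and 2.61% lower. The relative log2 ratios of the 10 ran from -0.12 to 0.33 with a median of 0.23. Serpina3k, contrapsin, an inhibitor of trypsin-like proteases, held 84.1% of Serpina3 FPKM in wild-type and 84.4% in Adipoq-/- liver. Its level was 3334 and 3592 FPKM (relative log2 ratio 0.26). Serpina3m followed at 419 and 453 (0.26). Serpina3n, the copy best known for induction in inflammation, was 68.1 and 66.3 FPKM (relative log2 ratio 0.11). Serpina3f stood at 44.0 and 42.3 (0.10) and Serpina3h at 29.1 and 31.8 (0.27). Serpina3g, which inhibits cysteine cathepsins in leukocytes, was 35.3 and 38.7 (0.28).

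At lower levels, Serpina3c, the kallikrein-binding protein, was 19.8 FPKM in wild-type and 16.3 in Adipoq-/- liver (-0.12), and Serpina3a was 11.7 and 11.3 (0.11). Serpina3i stood at 1.68 and 1.76 and Serpina3j, past the minimum only through the knockout library, at 0.827 and 1.06. Serpina3b, at 0.839 and 0.991, was under the minimum. The 11 ratios as deposited lay between 0.822 (Serpina3c) and 1.28 (Serpina3j). Serpina3 transcripts are easier to tell apart than those of Serpina1: from 62.5% (Serpina3h) to 96.1% (Serpina3a) of their 36-base windows occur in no other gene.

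The other clade A genes include hormone carriers and regulators. Of 5 past the minimum, Serpina12 and Serpina10 were at least 1.5-fold higher and 0 were lower, where 6.73% and 2.61% of all genes were. The relative log2 ratios of the 5 ran from -0.53 to 0.87. Serpina7, thyroxine-binding globulin, which carries thyroid hormone in blood, measured 48.4 FPKM in wild-type and 29.9 in Adipoq-/- liver. That is 0.618 times as deposited, with a relative log2 ratio of -0.53, the lowest of the 32 members past the minimum. It was past 1.5-fold lower as deposited and not relative to the all-gene median. Only 3.59% of all genes had a lower ratio, and all of its 36-base windows are its own. Serpina6, corticosteroid-binding globulin, was 95.5 and 79.9 FPKM (-0.10), near the all-gene median.

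Other hormone genes were set beside these carriers. All 10 genes of the list of hormone carriers and receptors were measured, with a median of 0.06. Of them, 1 was at least 1.5-fold higher and 0 lower, where 6.73% and 2.61% of all genes were. The higher one was Dio1, the deiodinase that activates thyroxine, at 76.9 and 108 FPKM (0.64). Hsd11b1, which regenerates active glucocorticoid, came next at 639.6 and 781 (0.44). Transthyretin (Ttr), another carrier of thyroxine, was 6905 and 6885 FPKM, and albumin 17522 and 14031. The thyroid hormone receptors Thra and Thrb stood at 7.14 and 5.42 and at 2.12 and 1.76 FPKM.

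Serpina12, vaspin, first known as a product of visceral fat, had the highest ratio of the family. It measured 43.5 FPKM in wild-type and 72.4 in Adipoq-/- liver, 1.66-fold higher, with a relative log2 ratio of 0.87, and 1.51% of all genes had a higher one. Centred on abundant genes it was 0.61 and, corrected for length, 0.96. Only under equal sums, at 0.56, did it miss 1.5-fold. All of its 36-base windows are found in no other gene. Of 8 adipocyte markers, 4 were listed, and they summed to 2161 FPKM in wild-type and 1470.1 in Adipoq-/- liver, nearly all of it Car3, which liver also expresses. The part of fat cells in the Serpina12 value was not tested, and Lep, Retn, Plin1 and Adrb3 were not analysed here. Cfd, an adipocyte protease, was 13.3 and 2.01 FPKM, Cidea 1.03 and 0.146, and Fabp4 9.61 and 10.95.

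Serpina10, the protein Z-dependent inhibitor of clotting factor Xa, was 119 FPKM in wild-type and 161 in Adipoq-/- liver. Its relative log2 ratio of 0.59 was barely past 1.5-fold. It was 1.36-fold as deposited, and it was under 1.5-fold with a minimum of 5 FPKM and under every other scaling except the correction for length. Just short of the line was Serpinb6a at 0.52. Serpina11 was 55.6 and 61.8 FPKM (0.30). Serpina9, centerin, which is known from germinal centre B cells, was listed at 0.342 and 0.707 FPKM, under the minimum.

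The promoter letters of Serpina7 and Serpina12 are printed because these genes lie at the lowest and the highest end of the family by ratio. Each is the 150 bases before the start in the RefSeq table (GRCm38.p6, minus strand), at chrX:139085237-139085386 for the more upstream of the annotated Serpina7 starts and at chr12:104044444-104044593 for Serpina12. Capitals mark GTTAAT, which is present in the first and not in the second.
Serpina7: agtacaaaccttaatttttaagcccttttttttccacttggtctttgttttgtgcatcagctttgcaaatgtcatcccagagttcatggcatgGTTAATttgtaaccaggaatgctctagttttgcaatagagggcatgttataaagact
Serpina12: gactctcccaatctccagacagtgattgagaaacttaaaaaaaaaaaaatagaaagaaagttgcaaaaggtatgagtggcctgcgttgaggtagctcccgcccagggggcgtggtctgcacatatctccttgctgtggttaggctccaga

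The member genes sit on 8 chromosomes, and 21 of the 35 lie in the clade A cluster on chromosome 12. In the RefSeq gene order (GRCm38.p6), high ratios were not adjacent. Serpina10 (0.59) is followed by Serpina6 (-0.10), then by Serpina1b, Serpina1d, Serpina1a and Serpina1c (0.15, 0.21, 0.26 and 0.17), then by Serpina1e (0.81). Serpina11 (0.30) and the scarcely expressed Serpina9 separate Serpina1e from Serpina12 (0.87). The Serpina3 genes come last. Serpina1e is thus the outermost of the Serpina1 copies on the side of Serpina12.

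**Figure D3:**
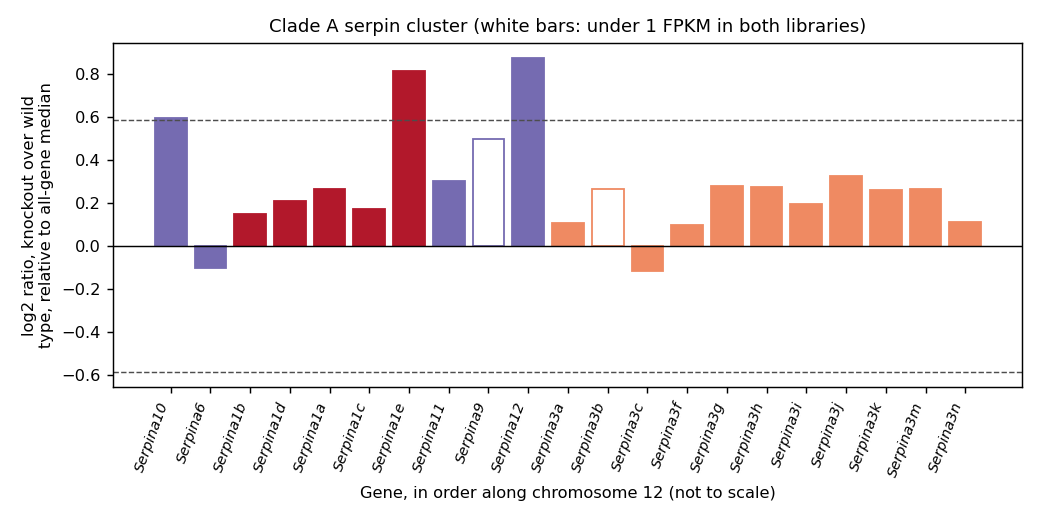
Relative log2 ratio (knockout over wild type) of the 21 member genes on chromosome 12, in gene order and not to scale, coloured by subfamily, with white bars for the 2 genes under 1 FPKM in both libraries and dashed lines at 1.5-fold. Serpina10, Serpina1e and Serpina12 pass the upper line and are not next to each other.

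The secreted inhibitors of clotting, plasmin and complement in clades C to I were lower in FPKM as deposited and close to the all-gene median in relative terms. Serpina10, the factor Xa inhibitor of clade A, went the other way at 119 and 161 FPKM (0.59). Antithrombin (Serpinc1), the main brake on thrombin, was 709 FPKM in wild-type and 616 in Adipoq-/- liver (-0.05). Heparin cofactor II (Serpind1), a second thrombin inhibitor, was 216 and 197 (0.02). Alpha-2-antiplasmin (Serpinf2), which blocks plasmin, was 280.2 and 232 (-0.12). C1 inhibitor (Serping1), which stops the first complement proteases and plasma kallikrein, was 251 and 223 (-0.02). Pigment epithelium-derived factor (Serpinf1), a member that inhibits no protease, was 475 and 402 (-0.09). As deposited these 5 ratios lay between 0.827 and 0.910. Relative to abundant genes, all 5 were lower, from -0.38 for Serpinf2 to -0.24 for Serpind1. After correction for length, Serpinc1 was at 0.08 and Serpind1 at 0.03. Of the 36-base windows of the longest Serpinc1 transcript, 41.1% occur in no other annotated gene, and for the other 4 genes all of them do.

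Their target proteases gave similar values. Of 16 liver proteases on the list, 15 were measured, with a median relative log2 ratio of -0.03. None was at least 1.5-fold higher or lower, where 6.73% and 2.61% of all genes were. Thrombin (F2), the target of Serpinc1 and Serpind1, was 562 and 494 FPKM (-0.03). Factor X (F10), whose active form Serpina10 inhibits, was 216 and 198 (0.03), and plasminogen (Plg), the precursor of the target of Serpinf2, 512 and 413 (-0.16). Farthest from the median were C1s, a target of Serping1, at 135 and 90.6 FPKM (-0.42), and plasma kallikrein (Klkb1), another, at 45.9 and 33.2 (-0.30).

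Of the 12 plasminogen activators, serpin cofactors and clearance receptors, 7 were measured, with 0 past 1.5-fold in either direction and a median of 0.00. The shares of all genes were 6.73% higher and 2.61% lower. Lrp1, the receptor that clears serpin-protease complexes from blood, was 139 and 125 FPKM (0.001). The largest distances were those of Pros1 (12.6 and 8.75) and Sdc1 (48.6 and 34.6), at -0.33 each. Inhibitors outside the serpin family gave 0 of 21 measured members past 1.5-fold either way and a median of 0.13. Among them Ambp, the bikunin precursor, was 1676 and 1933 FPKM (0.36), Cpb2 189 and 214 (0.33), and the broad inhibitors Mug1 360.5 and 317 (-0.03) and Pzp 608 and 544 (-0.01).

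**Figure D4:**
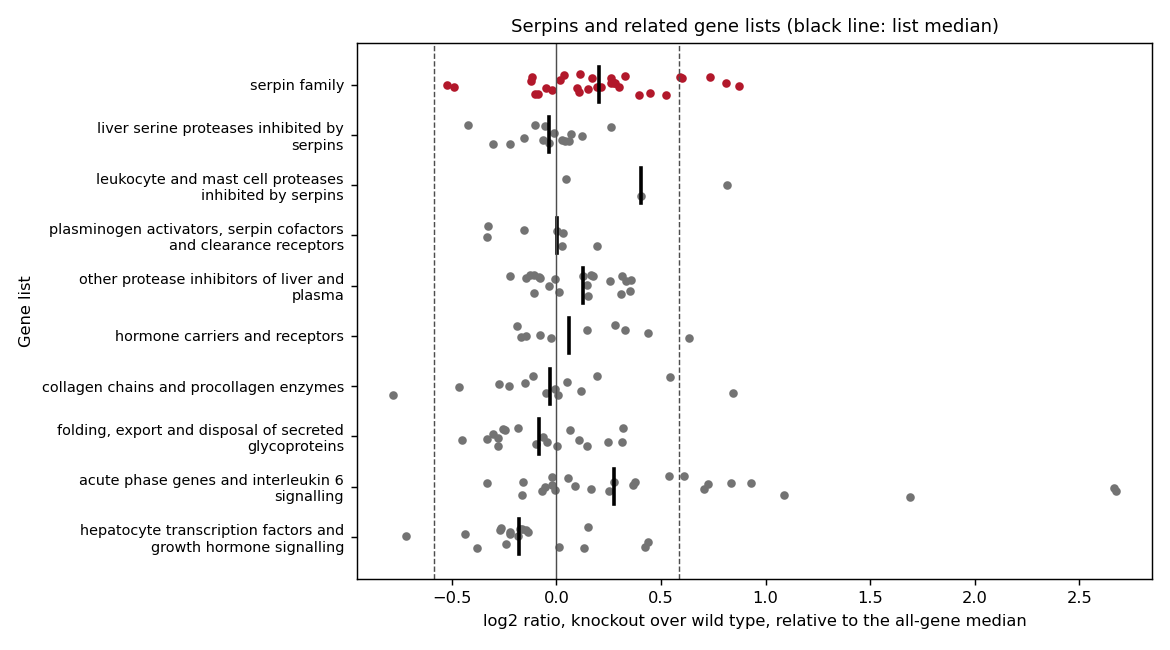
Relative log2 ratio (knockout over wild type) of each gene that reached 1 FPKM in either library, 1 point per gene, for the serpin family and 9 lists of related genes, with black lines at list medians and dashed lines at 1.5-fold. The serpin median is 0.20, the liver protease median -0.03 and the acute phase median 0.28.

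The clade B serpins, better known from leukocytes and barrier tissues, were scarce. Of 5 past the minimum, 2 were at least 1.5-fold higher and 0 lower, where 6.73% and 2.61% of all genes were. Neither of the higher ones, Serpinb6b and Serpinb9, was past 1.5-fold on the log2(FPKM + 1) scale as deposited, after rescaling to equal sums or when centred on abundant genes, and Serpinb1a was past 1.5-fold lower in each of these settings. Serpinb6a, an intracellular inhibitor of cathepsin G, was 12.5 FPKM in wild-type and 16.5 in Adipoq-/- liver (0.52). Serpinb9, which protects cells from granzyme B, was 2.65 and 3.98 (0.60), and Serpinb6b 1.36 and 2.54 (0.74). Serpinb8, an inhibitor of furin, was 0.922 and 1.27 and passed the minimum only through the knockout library. Serpinb1a, which inhibits neutrophil elastase, cathepsin G and proteinase 3, went the other way at 3.84 and 2.10 FPKM (-0.49). Its paralog Serpinb1c was listed at 0.629 and 0.162, under the minimum. The number of reads behind such low values is unknown.

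Summed markers of leukocytes, as deposited, were lower for neutrophils and lymphocytes, and the higher sum for Kupffer cells came mostly from Lyz2. Of 10 neutrophil markers, 3 were listed and summed to 23.6 FPKM in wild-type and 20.2 in Adipoq-/- liver. S100a8 was 9.87 and 6.69, and S100a9 12.6 and 12.7. Of 10 lymphocyte markers, 3 were listed, with sums of 5.05 and 3.52. Of 13 Kupffer cell markers, 12 were listed, with sums of 267 and 317. Relative to the all-gene median, 2 were at least 1.5-fold higher and 0 lower, where 6.73% and 2.61% of all genes were. The higher ones were lysozyme (Lyz2, 72.5 and 116) and Marco (1.26 and 3.72). Without Lyz2 the sums were 194 and 201. As deposited, 4 of the 12 were lower, Clec4f (52.0 and 48.9), Cd5l (32.4 and 31.2), Cd68 (9.43 and 8.15) and Csf1r (6.77 and 5.86), and the rest higher. In relative terms, 10 of the 12 Kupffer cell markers lay above the all-gene median and 2 below, with a median of 0.29. That median was 0.11 after correction for length and 0.03 when centred on abundant genes. Of the 11 leukocyte proteases on the target list, 4 were listed and 3 passed the minimum, with a median of 0.41. Of these 3, 1 was at least 1.5-fold higher and 0 lower, where 6.73% and 2.61% of all genes were. The higher one was proteinase 3 (Prtn3), near the minimum at 1.14 and 2.40. Cathepsin S (Ctss), whose ratio is the median, was 20.5 and 24.7, and cathepsin L (Ctsl) 374 and 348. The part of these cells in the clade B values was not tested.

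Serpine2, protease nexin-1, which inhibits thrombin and plasminogen activators at cell surfaces, was 4.04 FPKM in wild-type and 3.65 in Adipoq-/- liver (0.03). Serpinh1, the collagen chaperone HSP47 of the endoplasmic reticulum, was 2.33 and 3.08 (0.45). Of 22 collagen chains and procollagen enzymes, 15 were listed and 14 passed the minimum, with a median of -0.03. Of the 14, 1 was at least 1.5-fold higher and 1 lower, where 6.73% and 2.61% of all genes were. The higher one was Ppib (239.9 and 389, relative log2 ratio 0.85) and the lower one Lepre1 (6.35 and 2.85, -0.78), both of which modify new collagen. Col1a2 was 2.92 and 3.04 FPKM and Col3a1 2.06 and 1.74. The 9 of 10 stellate cell and fibroblast markers listed summed to 208 FPKM in each library.

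Markers of the remaining cell types are given as sums. Endothelial markers, 10 of 10, were 98.1 FPKM in wild-type and 105 in Adipoq-/- liver. Cholangiocyte markers, 3 of 7, were 16.2 and 23.6, and the higher sum came mostly from Spp1. Krt19 was 1.02 and 1.09, and Sox9 was lower as deposited at 1.72 and 1.52. Platelet markers, 3 of 5, were 5.51 and 6.36, and pancreatic acinar markers, 3 of 9, were 34.97 and 63.8, mostly Cela1. The part of these cells in the serpin values was not tested either.

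**Figure D5:**
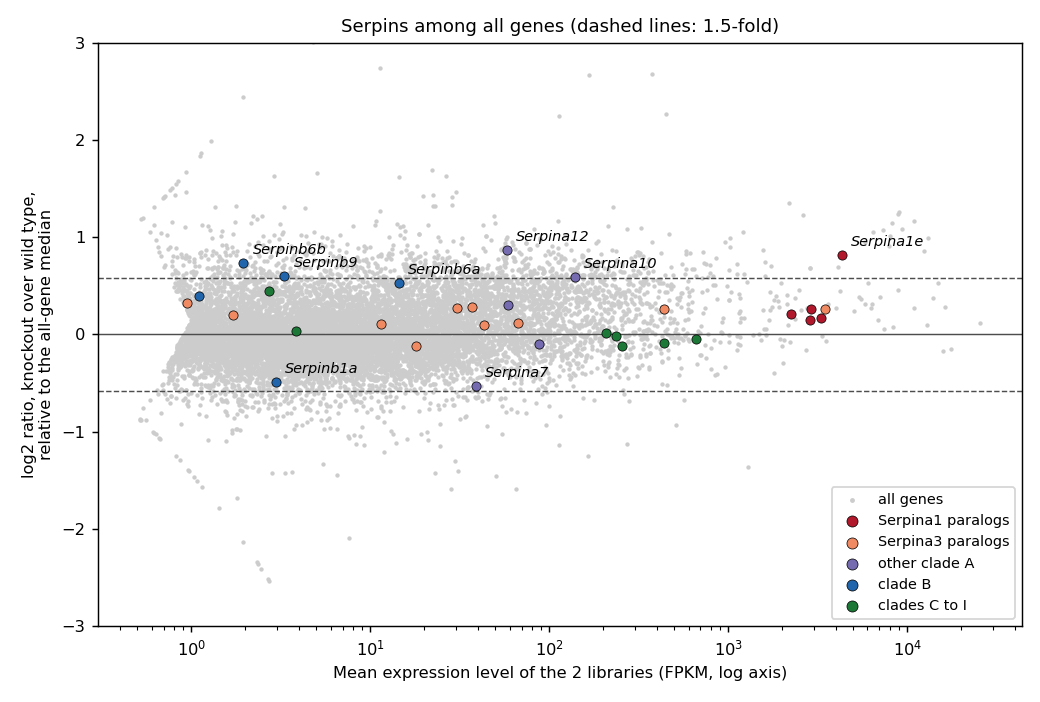
Relative log2 ratio (knockout over wild type) against mean level of the libraries in FPKM (log axis) for all 11985 genes in grey and the 32 serpins past the minimum in colour, with dashed lines at 1.5-fold and 4 grey genes outside the axis. Serpina12 (0.87) and Serpina1e (0.81) lie highest among the serpins and Serpina7 (-0.53) lowest.

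Several serpins are acute phase proteins, and liver serpins depend on hepatocyte transcription factors and on the secretory pathway, so these genes were read beside them. Of 25 measured acute phase and interleukin 6 genes, 9 were at least 1.5-fold higher and 0 lower, where 6.73% and 2.61% of all genes were. The list median was 0.28, near the 0.26 of all genes of at least 100 FPKM, and 0.02 when centred on those genes. After correction for length the medians were 0.25 and 0.09. Of the 1018 genes of at least 100 FPKM, 187 were 1.5-fold higher. The list also holds genes of lower level, such as Cebpb at 10.7 and 9.35 FPKM. Of the 25, 17 lay above the all-gene median and 8 below, with Fga lowest at 1124 and 805 FPKM (-0.33). The highest, Saa1 (110 and 636 FPKM, 2.68) and Saa2 (49.3 and 286, 2.66), were far above Serpina3n, the acute phase serpin, at 0.11. The other genes of the list past 1.5-fold were Saa3, Fgl1, Lcn2, Orm2, Hpx, Lrg1 and Orm1, the last at 900.3 and 1339 FPKM (0.72). Stat3 was 37.7 and 32.2 (-0.07). Of 18 measured hepatocyte transcription factors and growth hormone genes, 0 were higher and 1 lower, where 6.73% and 2.61% of all genes were. Their median was -0.18. The lower one was Stat5a at 3.93 and 1.69 (-0.72). Igf1, the growth hormone target that liver secretes, was 546 and 666 FPKM (0.44). Of 18 genes for folding, export and disposal of secreted glycoproteins, none was 1.5-fold apart, and the median was -0.08. Sel1l (17.8 and 11.4 FPKM, -0.45) and Syvn1 (21.6 and 15.1, -0.33), which take part in the disposal of misfolded proteins, were farthest from the all-gene median. Lman1, a cargo receptor that carries alpha-1-antitrypsin out of the endoplasmic reticulum, was 30.8 and 24.1 FPKM (-0.19).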

How the data were processed

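The deposited values are FPKM, 1 value per gene symbol for each of the 2 pooled libraries. Per the submitters' processing notes, the authors used TopHat and Cuffdiff with the mouse builds mm9 and NCBIM37. Their versions, the annotation and any row filter were not known here. Each table has 13352 rows, and for 26 symbols in 2 rows, none of them a serpin, the one with the higher mean was used. Read counts were not used here, so depth and counting error are unknown. Ratios used a pseudocount of 1 FPKM and were centred on the all-gene median. All members are named, those of at least 5 FPKM with their ratio. From each of 9 gene lists the 2 measured genes of at least 5 FPKM farthest from the median are named (1 such gene is not reported here), and other listed genes were picked after their values were seen. The members, the gene lists and the 10 marker lists were chosen with earlier results of these data known. Genes were matched to GENCODE M21 transcripts (lengths, windows of 36 and 75 bases) and to RefSeq promoters (GRCm38.p6) by symbol. The ratio measure was tested on simulated data. Python 3.11.15, numpy 2.4.6, pandas 2.3.3 and matplotlib 3.10.9 were used.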

Additional observations from a re-analysis of the deposited data

How the results depend on the processing

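With 1 library per genotype and unknown depth, no value has an error, and no paired analysis was possible because each genotype has a single library. A value was taken as moved past 0.1 on the log2 scale and a count past 1.5 times. For single genes, crossing 1.5-fold also counted as moved, and a gene already past 1.5-fold counted only when it fell under that line. The family median of 0.20 was 0.052 with FPKM as deposited, -0.078 after rescaling to equal sums and -0.054 when centred on genes of at least 100 FPKM, the only setting chosen after seeing the data. Its other settings gave 0.11 to 0.24. The 5 members at least 1.5-fold higher became 2 as deposited, 0 with equal sums, 3 with equal upper quartiles, 2 with a minimum of 5 FPKM and 1 (Serpina12) when centred on abundant genes. The 0 members at least 1.5-fold lower became 1 with a pseudocount of 0.1 FPKM, and 2 as deposited, with equal sums, with equal upper quartiles and when centred on abundant genes. Of all genes, 9.52% were higher and 5.90% lower with that pseudocount, and 6.53% and 3.12% with the minimum of 5 FPKM. When centred on abundant genes, 1.81% of all genes were higher and 11.3% lower. Without mitochondrial and Mup genes the family's share of FPKM was 3.27% in wild-type and 3.58% in Adipoq-/- liver. Scaling and centring shift all genes by construction, and the minimum of 5 FPKM leaves 24 members. For the other settings the cause was not tested. Of 224 single-gene values recomputed under other scalings, pseudocounts or the length correction, 109 moved. Of the 224, 34 changed sign, and none of these 34 belonged to a gene past 1.5-fold. Over these settings Serpina12 ranged from 0.56 to 0.96, Serpina1e from 0.50 to 0.84 and Serpina7 from -0.83 to -0.51.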
